A study of Caenorhabditis elegans with 21 samples.

Results

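Small RNAs of Caenorhabditis elegans lacking the dipeptidyl peptidase DPF-3 (dpf-3 null) were compared with those of worms that carry a single amino acid change in the same protein (DPF-3 S784A). The comparison took the 3 libraries of each genotype, 6 of the 21 libraries of the series, and estimated the spread from these 6 alone. All of the 75393 features of the count table were considered, which are 20134 gene identifiers and 55259 unnamed genomic intervals. A count was seen in 17811 features in the 6 libraries, and 2280 of them (2129 genes and 151 intervals) had enough counts to be tested. The tested features held 80.8% of the feature counts of the null and 80.1% of those of S784A.

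DPF-3 belongs to the DPP4 family of serine proteases, which remove dipeptides from the amino end of other proteins, and the serine replaced in S784A is known as its catalytic residue. Published work on the protease places Argonaute proteins of the WAGO class among its substrates. WAGO proteins carry secondary small RNAs that RNA-dependent RNA polymerases copy from target transcripts, with the help of the mutator proteins, and they silence transposons and many germline genes. A small RNA count of a gene is therefore read here as a measure of how much that gene is targeted, not of its messenger RNA. The strand setting of the counting is not given, so reads from the messenger RNA itself cannot be set apart.

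Both genotypes were sampled as whole worms at the L4 larval stage, raised at 15 °C with NA22 bacteria as food on plates rich in peptone, and received no treatment. The labels name neither the allele behind the null, nor how S784A was made, nor how many independent lines were used. The series also holds 9 wild-type libraries and 3 libraries each of mut-2(ne3370) and mut-7(ne4255), mutants of the amplification machinery. Wild type is used below to describe levels and, together with the mut genotypes, to sort features into classes. Nothing in the labels says that the libraries of a genotype came from different cultures. The p-values therefore cover only the spread among the libraries at hand, which may be technical.

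The null libraries were the deeper ones. Counts in features were 224503, 176213 and 137185 in null A, B and C, and 95708, 62715 and 113444 in S784A A, B and C. A level of 3 counts corresponded to 13.3 to 48.4 CPM, the counts scaled to library size, so low features were measured less precisely in S784A. Depth thus moved with genotype, and its part in the differences was not tested. Replicates lay close together, with a common biological coefficient of variation of 6.47%. Wild-type libraries A to F stood apart from G, H and I, a division that no label mentions. Wild-type levels are given on the scale of the 6 libraries, which multiplies the wild-type library totals by 0.451 to 0.713 and so sets where wild type lies.

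The targeted gene differed as the labels say. The dpf-3 gene (WBGene00001056) occupies bases 6838354 to 6843343 of the plus strand of chromosome I in ce11. Its small RNAs stood at 13.3, 5.56 and 7.08 CPM in null A, B and C and at 118, 129 and 162 CPM in S784A A, B and C. All null libraries lay below all S784A libraries, and the S784A libraries lay inside the range of wild type A to F, 109 to 177 CPM, and above G to I, 79.4 to 95.2 CPM. The level was 13.9-fold lower in the null (log2 fold change -3.79, SE 0.59, adjusted p = 2.63e-08, edgeR's quasi-likelihood test with Benjamini-Hochberg adjustment, as for every adjusted p below), resting on 5 counts in the null and 37 in S784A. The gene had enough counts to be tested in S784A alone, and a filter at a mean of 10 counts left it out. Of the other dipeptidyl peptidase genes, dpf-7 was the one with enough counts to be tested, and its log2 fold change of -0.12 did not pass the test.

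Between the genotypes 138 of the 2280 features differed at an adjusted p under 0.05, which is 6.05% of those tested. The null had the higher level in 29 (1.27%) and the lower level in 109 (4.78%). In 129 of the 138 the 3 libraries of one genotype all lay beyond the 3 of the other, as they did in 467 of all tested features (20.5%). The differences were mostly moderate. Their median size was 0.89 on the log2 scale, 105 exceeded 1.5-fold and 57 exceeded 2-fold. The median log2 fold change of all tested features was 0.01.

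Which direction prevailed depended on the scaling. Scaled to all reads counted, including those in no feature, the median of all features moved to 0.30 and the split became 248 higher and 47 lower. Of the calls, 64 were kept when any single library was left out, 15 higher and 49 lower. A fit in which all 21 libraries shared the spread called 2 features, dpf-3 and ZC15.10, both lower in the null.

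**Figure D1:**
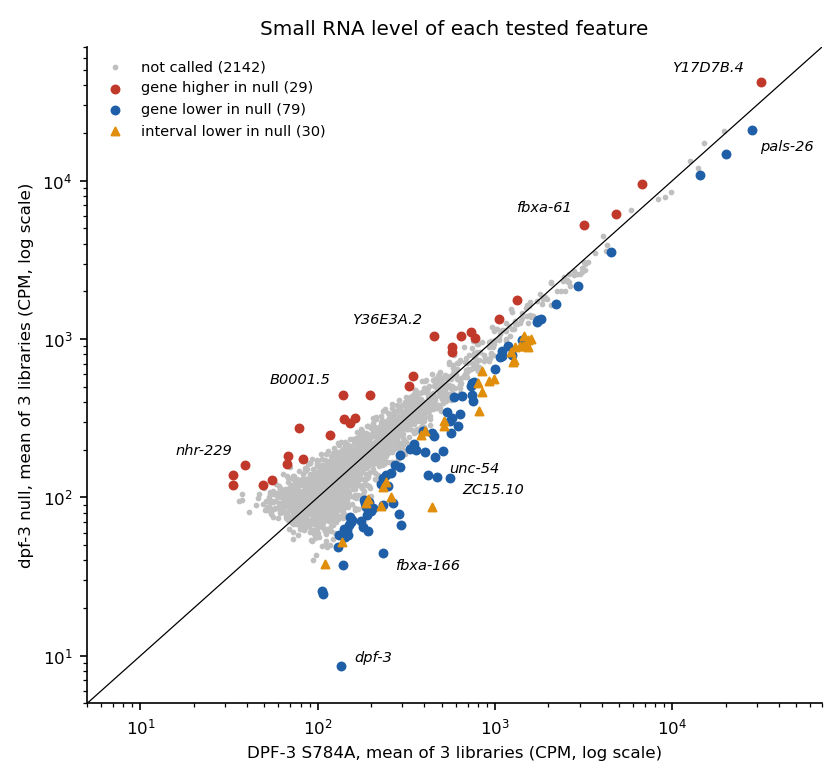
Mean small RNA level of each of the 2280 tested features in DPF-3 S784A (horizontal axis) and in the dpf-3 null (vertical axis), in CPM on log scales, each the mean of 3 libraries, with the line of equal levels. Called genes and intervals are coloured. The 30 called intervals all lie below the line, and dpf-3 lies farthest from it.

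The falls were led by dpf-3, 3 F-box genes, a muscle myosin gene and several genes without a known role. ZC15.10 (chromosome V, 20310736) had the smallest p of all features. Its level was 151, 122 and 128 CPM in null A, B and C against 567, 581 and 531 CPM in S784A A, B and C. The groups were far apart, and both lay below all wild-type libraries, which ranged from 775 to 1060 CPM. The log2 fold change was -2.03 (SE 0.21, adjusted p = 6.28e-19).

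The F-box A gene fbxa-166 had 31, 38.9 and 63.7 CPM in the null and 321, 178 and 198 CPM in S784A (log2 -2.46, SE 0.34, adjusted p = 1.24e-10). A second member, fbxa-136, had 93.1, 44.4 and 63.7 CPM against 385, 178 and 324 CPM (log2 -2.15, SE 0.28, adjusted p = 9.34e-12). In both genes the null lay below all wild-type libraries. S784A lay below wild type A to F (323 and 436 CPM or more) and above G to I (186 and 170 CPM or less) except for 1 library of fbxa-166. For fbxb-97, an F-box B gene, 62.0, 61.1 and 113 CPM in the null stood against 246, 339 and 279 CPM in S784A (log2 -1.89, SE 0.28, adjusted p = 4.53e-09). Here all 6 libraries lay below wild type, at 738 to 1315 CPM. For fbxa-166, fbxa-136 and fbxb-97, S784A alone had enough counts in every library to be tested.

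Among the other large falls, Y77E11A.8 had a log2 fold change of -2.10 (adjusted p = 0.00266), K09F6.6 of -1.86 (adjusted p = 0.000375) and pals-6 of -1.69 (adjusted p = 1.46e-05), and ZC178.2 was 4.01-fold lower (adjusted p = 0.00374). The pals genes are known for their part in the response to intracellular pathogens. All 3 null libraries lay below all S784A libraries in these 4 genes. Without null A the call on Y77E11A.8 was lost, without null B that on ZC178.2 and without S784A C that on K09F6.6. These 4 genes had enough counts to be tested in S784A alone. With a filter at a mean of 10 counts Y77E11A.8, K09F6.6 and ZC178.2 dropped out.

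The myosin heavy chain gene of body wall muscle, unc-54, showed a different relation to wild type. It had 137, 133 and 135 CPM in null A, B and C and 278, 613 and 513 CPM in S784A A, B and C. The null libraries were nearly equal and lay below all S784A libraries. They fell between wild type A to F (212 to 366 CPM) and G to I (60.7 to 85.4 CPM), and S784A B and C exceeded every wild-type library. The log2 fold change was -1.74 (SE 0.22, adjusted p = 1.44e-12). The second muscle gene that could be tested, ttn-1 (titin), was also lower in the null (log2 -1.18, adjusted p = 3.90e-09), and the other 23 of the 25 muscle genes listed had too few counts to be tested. The nearby gene W06H8.6 was called too (log2 -1.24), a call lost without any 1 of 4 of the 6 libraries and with all reads as the scale. It lies at 6221249 to 6227010 and does not overlap ttn-1, which ends at 6202632. No source used here gives the strand setting of the counting, so small RNAs of genes that do overlap cannot be told apart.

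The rises were led by a nuclear hormone receptor gene, nhr-229, with 182, 150 and 149 CPM in the null against 32.1, 48.4 and 36 CPM in S784A. All S784A libraries lay below every wild-type library, and the null lay near wild type A to F (100.2 to 157 CPM) and far below G to I (2423 to 2906 CPM). The log2 fold change was 2.09 (SE 0.41, adjusted p = 2.47e-05). It rested on 89 counts in the null and 10 in S784A, and the DESeq2 Wald test gave no adjusted p. B0001.5 had 492, 472 and 375 CPM against 53.5, 226 and 135 CPM (log2 1.82, SE 0.24, adjusted p = 9.80e-12), both genotypes being below wild type at 668 to 1477 CPM. F22H10.1 had 261, 256 and 312 CPM against 107, 48.4 and 81.0 CPM (log2 1.72, SE 0.30, adjusted p = 7.33e-07), with the null inside the range of wild type A to F (239.6 to 363 CPM), and S784A below every wild-type library. For nhr-229, B0001.5 and F22H10.1, the null alone had enough counts in every library to be tested.

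Y36E3A.2 had the smallest p of all features that were higher in the null. Its level was 1165, 1083 and 878 CPM in null A, B and C and 374, 436 and 558 CPM in S784A A, B and C. The null lay above wild type A to F (475 to 838 CPM), partly inside G to I (1055 to 1333 CPM), and S784A A and B lay below every wild-type library. The log2 fold change was 1.19 (SE 0.15, adjusted p = 4.53e-12).

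Several rises besides that of nhr-229 rested on few counts in S784A. The SUMO gene smo-1 (log2 1.66, adjusted p = 0.00562), smp-1 (a semaphorin, log2 1.31, adjusted p = 0.0301), rbm-17 (a splicing factor gene, log2 1.27, adjusted p = 0.0301) and hpo-40 (log2 1.26, adjusted p = 0.00906) each lost their call without S784A C and without at least 1 other library. The calls on smp-1, rbm-17 and hpo-40 were also lost by limma-voom, a further test. In S784A B, where 3 counts equal 48.4 CPM, smo-1 and F14F7.5 had no count. For smo-1, smp-1, rbm-17, hpo-40 and F14F7.5, the null alone had enough counts in every library to be tested.

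**Figure D2:**
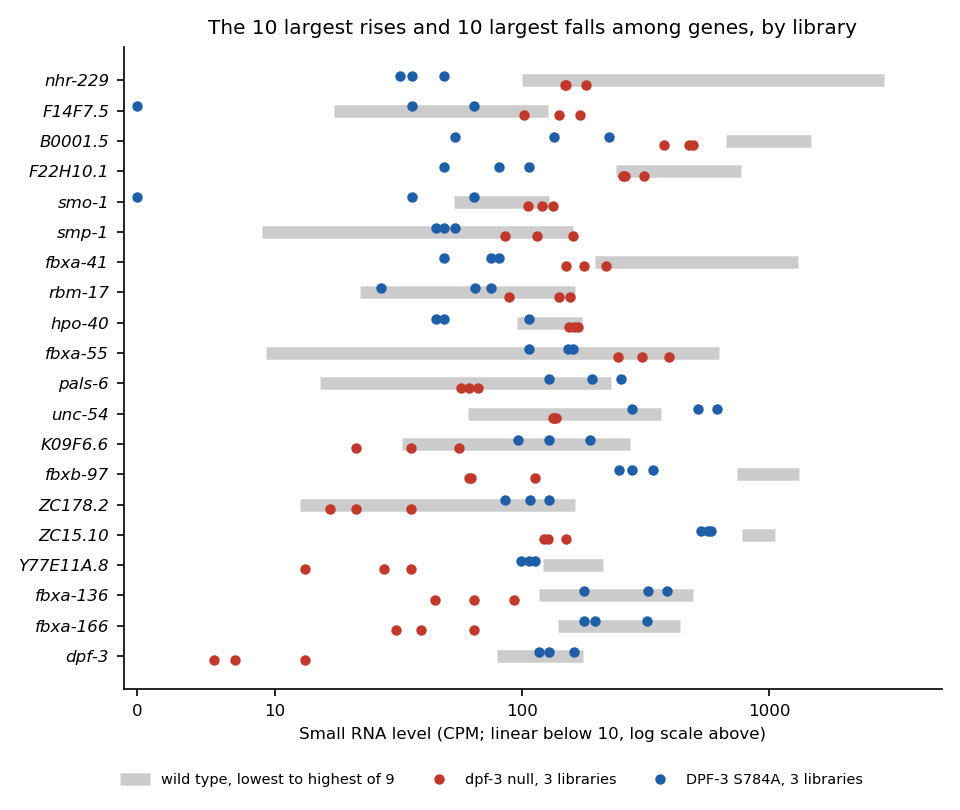
Small RNA level (CPM, linear below 10 and on a log scale above) of the 10 genes with the largest rise and the 10 with the largest fall among calls with non-overlapping libraries. Points are the 3 libraries of each genotype and grey bars run from the lowest to the highest of 9 wild-type libraries, across the gap between G to I and A to F. The red points (null) lie right of the blue points (S784A) in the upper 10 genes and left of them in the lower 10.

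Other called genes, chosen after their values were seen, have known roles. Among those higher in the null were sid-1, the double-stranded RNA channel of systemic RNAi (log2 0.55, adjusted p = 0.00721), lin-13, a zinc finger regulator (log2 0.61, adjusted p = 0.000375), plk-3, a Polo-like kinase (log2 0.68, adjusted p = 7.99e-05), and cps-6, the mitochondrial endonuclease G (log2 0.95, adjusted p = 0.00390). Among those lower in the null were lin-1, an ETS transcription factor (log2 -1.36, adjusted p = 0.00129), kin-1, the catalytic subunit of protein kinase A (log2 -1.17, adjusted p = 0.0145), par-3, a cell polarity gene (log2 -0.70, adjusted p = 0.0270), and snpc-1.3, a factor of piRNA transcription (log2 -0.68, adjusted p = 0.0270). The calls on kin-1, par-3 and snpc-1.3 were lost with all reads as the scale, by the DESeq2 Wald test and without any 1 of 3, 3 and 4 of the 6 libraries, in that order, S784A A being one of them for each gene. Those on sid-1 and cps-6 were lost by the Wald test and without S784A A and S784A C, respectively. The active zone gene unc-10, the single testable gene of 25 neuronal genes listed, was lower too (log2 -1.21, adjusted p = 0.00283; lost without S784A A).

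The features with the most small RNAs differed by less. Y17D7B.4 had 42960, 41410 and 41640 CPM in the null and 30990, 31360 and 32120 CPM in S784A (log2 0.42, SE 0.08, adjusted p = 3.91e-06). The groups did not overlap, and both lay between the wild-type sets, below A to F (45450 to 51590 CPM) and above G to I (6948 to 7339 CPM). In the opposite direction, pals-26 had 23830, 20490 and 18100 CPM against 30240, 26700 and 27520 CPM (log2 -0.44, SE 0.08, adjusted p = 1.75e-06). Y47H10A.5 was lower as well (log2 -0.46, SE 0.08, adjusted p = 7.63e-07), but neither fall passed the test when all reads set the scale. K02E2.6 (log2 0.08, adjusted p = 0.712) and eri-12 (log2 0.20, adjusted p = 0.125) were not called. With all reads setting the scale both were called higher, at log2 0.37 (adjusted p = 0.0141) and 0.50 (adjusted p = 0.000334).

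F-box A genes encode substrate adaptors of ubiquitin ligases and form a large family in this species. Of its 170 members 19 could be tested, 5 were higher and 6 lower in the null (57.9% called, beside 6.05% of all features), and the family median was 0.28. Members are close copies of each other, and the handling of reads with several positions is not given, so counts may be shared or lost between them. Scaled to all reads, 20 were tested, 9 being higher and 2 lower, beside 248 higher and 47 lower of all 2342 features tested.

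Neighbouring members were called in opposite directions. On chromosome X, fbxa-52 (1710149) had 1227, 894 and 822 CPM in the null and 1422, 1323 and 1539 CPM in S784A, a log2 fold change of -0.53 (adjusted p = 0.000488). The next gene, fbxa-53 (1716253), had 638, 572 and 538 CPM against 364, 355 and 315 CPM, a log2 fold change of 0.78 (adjusted p = 0.000469). In the first the null was below and in the second above S784A, with no overlap in either. The call on fbxa-52 was lost with all reads as the scale, without a filter and without S784A C.

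On chromosome III, between 933422 and 954102, 6 genes were tested. Of these fbxa-55 was higher (394, 244 and 304 CPM in the null against 107, 161 and 153 CPM in S784A, adjusted p = 7.92e-05), fbxa-11 (log2 -1.06, adjusted p = 0.0411) and fbxa-10 (log2 -0.90, adjusted p = 0.0457) were lower, and fbxa-59, fbxa-60 and fbxa-67 did not pass the test. The calls on fbxa-11 and fbxa-10 were lost without any 1 of 5 and 4 of the 6 libraries, S784A A among them, and with all reads as the scale. The most abundant member, fbxa-61, had 5454, 5383 and 4965 CPM in the null against 3058, 3065 and 3464 CPM in S784A (log2 0.72, SE 0.09, adjusted p = 9.41e-12). The other members called were fbxa-41 (log2 1.31), fbxa-24 (log2 0.38) and fbxa-150 (log2 -1.06). The call on fbxa-41, which had enough counts to be tested in the null alone, was lost by the DESeq2 Wald test and by limma-voom. That on fbxa-150 was lost with all reads as the scale. Both fbxa-24 and fbxa-150 lost their call without null A or S784A C. Of the F-box B genes fbxb-14 was lower besides fbxb-97 (log2 -0.55, adjusted p = 0.00614; not called with all reads as the scale or without null A or S784A C), and 3 members were testable. Neither of the 2 testable F-box C genes was called.

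**Figure D3:**
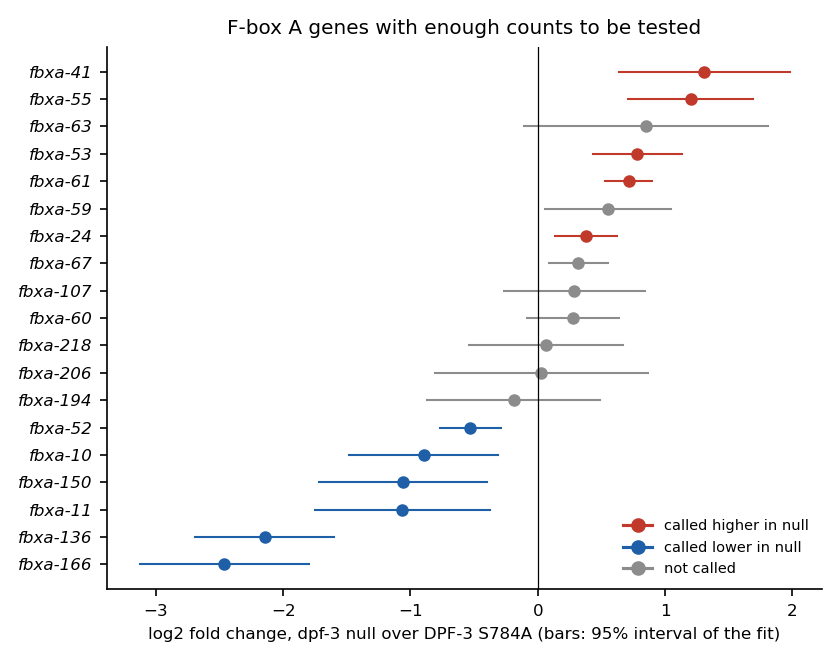
Log2 fold change of the 19 tested F-box A genes, dpf-3 null over DPF-3 S784A, with the 95% interval of the edgeR fit as bars. The 5 members called higher (red) reach up to 1.31 and the 6 called lower (blue) down to -2.46, with 8 members not called (grey).

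The called intervals were all lower in the null. Of 151 tested edgeR called 30 lower (19.9%) and 0 higher, beside 4.78% and 1.27% of all tested features. At an unadjusted p under 0.05 there were 55 and 2. The DESeq2 Wald test called 21 lower and limma-voom 33, and both called 0 higher. The intervals had a median log2 fold change of -0.35 beside 0.01 for all features. In 57 of them all null libraries lay below all S784A libraries, and in 1 all lay above, beside 11.1% and 9.34% of all features. With all reads as the scale 155 were tested, 15 being lower and 3 higher, with a median of -0.06 beside 0.30 for all features. Of all 2342 features tested at that scale, 47 were lower and 248 higher. Long intervals supplied most calls, 25 of 107 (23.4%) with 1000 bases or more. Shorter ones supplied 4 of 23 (17.4%) with 200 or more but under 1000 bases and 1 of 21 (4.76%) under 200 bases. By position, 19 of 64 that overlap an exon were lower (29.7%), 8 of 62 between genes (12.9%) and 3 of 25 in introns (12%).

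Chromosome V carried 17 of the 30, out of 47 tested there (36.2%, beside 19.9% of all tested intervals), and had a median of -0.47. The interval with the largest fall lay between genes on chromosome II, 2001893 to 2010149 (plus strand; positions as the table gives them, ce11, without it being given whether they count from 0 or 1). It had 88.6, 94.4 and 77.9 CPM in null A, B and C and 342, 549 and 432 CPM in S784A A, B and C. The null libraries lay between wild type A to F (227 to 427 CPM) and G to I (51.3 to 74.7 CPM), and S784A B and C lay above every wild-type library. The log2 fold change was -2.28 (SE 0.24, adjusted p = 1.16e-17).

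The next largest falls were at chromosome II, 2161923 to 2163814, minus strand, over an exon of C33C12.11 (log2 -1.53, adjusted p = 0.0187), and at chromosome V, 14764611 to 14765406, plus strand, over an exon of the pseudogene WBGene00013056 (log2 -1.44, adjusted p = 7.74e-06). They were followed by chromosome V, 18443955 to 18455084, plus strand (log2 -1.40, adjusted p = 8.38e-05), and chromosome IV, 15343022 to 15344038, plus strand (log2 -1.37, adjusted p = 0.00949). The call at 2161923 was lost without null A, null C, S784A A or S784A C, and that at 15343022 without null B or S784A C. Both had enough counts to be tested in S784A alone, and a filter at a mean of 10 counts left out the interval at 2161923. The intervals at 14764611 and 18443955 also had enough counts in every library in S784A alone, as they fell short in null A. In all intervals of this paragraph the genotypes did not overlap. Except for the pseudogene interval, all 6 libraries lay below every wild-type library.

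Among the other called intervals 4 lie next to each other on the minus strand of chromosome V, starting at 17132108, 17137383, 17142308 and 17146845, with log2 fold changes of -0.78, -0.67, -0.65 and -0.77, the last 2 not called with all reads as the scale. The first had 771, 961 and 949 CPM in the null and 1476, 1646 and 1467 CPM in S784A, against 11330 CPM in the lowest wild-type library. Another pair, chromosome V from 8836864 to 8844797 and from 8878958 to 8886892, is nearly equal in length and had log2 fold changes of -0.72 and -0.71. These may share reads and are uncertain as separate differences.

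The share of feature counts in intervals was 6.98%, 6.98% and 7.01% in null A, B and C and 8.70%, 8.84% and 8.91% in S784A A, B and C. The groups did not overlap, and both were below the wild-type range of 16.3% to 21.9%. The difference of -1.82 percentage points had an exact two-sided permutation p of 0.1, the smallest that 3 against 3 libraries allow (0.133 adjusted over 4 classes). Protein-coding genes held 89.5% ± 0.27 in the null and 87.8% ± 0.204 in S784A (SD, n = 3 each, exact p = 0.1), and pseudogenes 3.43% ± 0.26 and 3.35% ± 0.128 (exact p = 0.7). Reads in no feature made up 79.0% ± 1.37 of all reads counted in the null and 82.2% ± 0.601 in S784A (n = 3 each, exact p = 0.1). As a share of all reads, intervals held 1.47% ± 0.0923 and 1.56% ± 0.0588, which overlapped (n = 3 each, exact p = 0.3).

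Features with fewer small RNAs in the absence of the mutator proteins, here called mutator-dependent, were found from the wild-type, mut-2 and mut-7 libraries, none of which enters the dpf-3 contrast. In those libraries 1623 of 5569 features (29.1%) were lower than wild type in both mut genotypes. Of the features lower in both, 568 could be tested between the dpf-3 genotypes, with a median log2 fold change of -0.21. In the null 83 were lower and 17 higher, that is 14.6% and 2.99%, beside 4.78% and 1.27% of all tested features. Of 329 features higher in both mut genotypes 0 were called by edgeR, the DESeq2 Wald test or limma-voom, with 16 higher and 5 lower at an unadjusted p under 0.05 and a median of 0.06. Of the 1376 others 25 were lower (1.82%) and 12 higher (0.87%), with a median of 0.07. The median number of counts over the 6 libraries was 146, 134 and 110 in the 3 classes, and the median SE 0.26, 0.28 and 0.31.

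The mutator-dependent class held 441 genes, 56 of them lower and 17 higher, and 127 intervals, 27 lower. When all reads set the scale, the median of the class was 0.09 beside 0.30 for all features. At that scale 58 of 580 were higher and 38 lower, beside 248 higher and 47 lower of all 2342 features tested. Without S784A C the number of members lower in the null was 54.

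**Figure D4:**
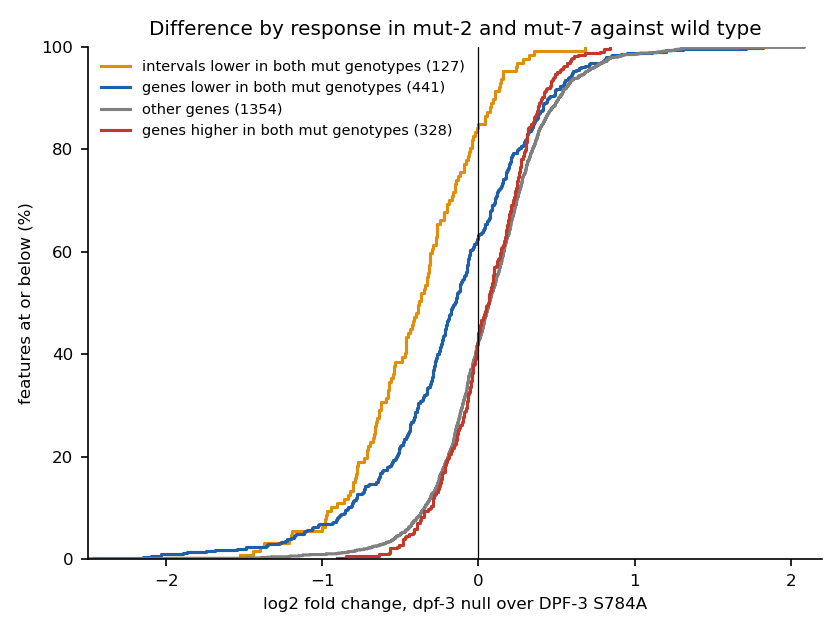
Cumulative share of tested features (%) by log2 fold change, dpf-3 null over DPF-3 S784A, for 127 intervals and 441 genes lower in both mut genotypes than in wild type, 328 genes higher in both and 1354 other genes. The curve of the intervals lies farthest left and that of the mutator-dependent genes next, while the 2 remaining curves nearly coincide.

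The lists of known small RNA targets held calls in both directions or few calls. ERGO-1 is an Argonaute whose primary small RNAs act on duplicated genes in embryos. Of 25 listed targets 20 were tested, with a median of -0.16. Higher in the null were 2 (10%) and lower 4 (20%), beside 1.27% and 4.78% of all tested features. With all reads as the scale 7 of 19 were higher and 1 lower, beside 248 higher and 47 lower of all 2342 features tested.

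Y116F11A.1, without a known role, had 93.1, 83.3 and 92.1 CPM in the null and 214, 290 and 198 CPM in S784A (log2 -1.32, SE 0.29, adjusted p = 0.000247). All S784A libraries exceeded the highest wild-type library at 154 CPM. F14F7.5 had 102, 172 and 142 CPM in the null and 64.2, 0 and 36 CPM in S784A (log2 1.83, SE 0.43, adjusted p = 0.000902). The remaining calls were smaller, with F55C9.5 at -0.56, Y43F8B.9 at -0.43, F55C9.3 at -0.41 and E01G4.5 at 0.44, and the 3 lower ones were not called with all reads as the scale. C08F11.7, lower in both dpf-3 genotypes than in any wild-type library, had 97.5, 83.3 and 42.5 CPM in the null and 150, 32.3 and 99.0 CPM in S784A, which overlap (log2 -0.36, adjusted p = 0.718).

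Of 14 genes listed as silenced through WAGO Argonautes 8 were tested and C38D9.2 was called. It had 315, 317 and 382 CPM in the null and 610, 694 and 603 CPM in S784A, both below the wild-type range of 3242 to 7937 CPM (log2 -0.91, SE 0.17, adjusted p = 6.52e-06). The next 3 genes with high wild-type levels did not pass the test. Of these saeg-2 differed by 0.07 on the log2 scale (95% interval -0.34 to 0.49), the linker histone gene his-24 by -0.08 (-0.31 to 0.16) and the helicase gene eri-6 by -0.29 (-0.49 to -0.09, adjusted p = 0.0757). B0261.8 had 3 counts in the null and 4 in S784A, and the collagen gene col-71 had 18 and 10, too few to be tested. lsl-1, a germline chromatin gene, did not pass the test either (log2 -0.25, 95% interval -0.67 to 0.17).

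Small RNAs against listed genes of the machinery itself did not pass the test, while sid-1 and snpc-1.3, which are in none of these lists, did (above). By edgeR 0 were called among 11 of 20 Argonaute genes tested (median 0.13), 17 of 23 mutator and amplification genes (0.14), 6 of 12 genes of the ERI complex and its partners (0.07), 13 of 16 genes of nuclear RNAi and chromatin (0.14) and 10 of 18 piRNA pathway genes (-0.02). At an unadjusted p under 0.05 there were 3, 2, 1, 1 and 1 in these lists. DESeq2 called 0 in each, and limma-voom called 1, in the ERI list. The members with the smallest p were prg-1, the piRNA Argonaute (log2 -0.23, adjusted p = 0.130), hrde-1, the nuclear WAGO (log2 -0.25, adjusted p = 0.216; the pairs that follow give the same quantities), rde-12, a helicase of amplification (0.50, 0.153), ego-1, an RNA-dependent RNA polymerase (0.34, 0.267), hpl-2, a heterochromatin protein (0.61, 0.190), mes-2, a Polycomb methyltransferase (0.34, 0.571), sosi-1, beside eri-6 (0.35, 0.488), and tofu-4, a factor of piRNA production (0.39, 0.339). With all reads as the scale, where the median of all features is 0.30, the null was higher in 2 of 11 Argonaute genes, 5 of 17 mutator and amplification genes, 1 of 6 of the ERI list, 2 of 13 of nuclear RNAi and chromatin and 3 of 11 of the piRNA pathway. None was lower. Of the genes just named, rde-12, ego-1, hpl-2, sosi-1 and tofu-4 were among those called.

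The germ granule list held 1 call among 12 of 17 genes tested. The Vasa-like helicase gene glh-1 (chromosome I, 6854478 to 6857536), had 802, 733 and 857 CPM in the null and 1080, 1275 and 1386 CPM in S784A (log2 -0.65, SE 0.13, adjusted p = 2.27e-05; not called with all reads as the scale). S784A A and B lay inside the wild-type range of 981 to 1329 CPM, S784A C above it and the null below it. The gene lies close to dpf-3 on the chromosome, and whether linked sequence differs between the strains was not tested. Within 1 Mb of dpf-3, 72 features were tested, 2 were lower (dpf-3 and glh-1) and 1 was higher (acdh-1, log2 0.64, adjusted p = 0.0115, lost without null A, S784A A or S784A C), which is 4.17% beside 6.05% of all features. The granule protein gene mip-1 had a log2 fold change of 0.24 (adjusted p = 0.541) and was called higher with all reads as the scale (0.53, adjusted p = 0.0299).

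Of 80 histone genes 33 were tested and hil-5, a linker histone gene, was lower in the null. It had 284, 328 and 297 CPM against 503, 565 and 612 CPM (log2 -0.89, SE 0.18, adjusted p = 2.87e-05), S784A lying above the highest wild-type library at 463 CPM. The median of the list was -0.30, and -0.01 beside 0.30 for all features when all reads set the scale. The core histone genes are near-identical copies, among which counts may be shared. By p-value his-15 came next after hil-5 and did not pass the test (log2 -0.50, adjusted p = 0.181).

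Markers of cell types and other lists held few testable members or few calls. Of 47 spermatogenesis genes 3 were tested. The germline sex determination gene fog-1 was lower in the null (log2 -0.78, adjusted p = 0.0348; lost with all reads as the scale and without any 1 of 4 of the 6 libraries) and fog-3 was not called (-0.64, 0.438). Of 61 oogenesis and maternal genes 33 were tested and 0 called by edgeR, DESeq2 or limma-voom (2 at an unadjusted p under 0.05), puf-11 (-0.78, 0.150) and htp-1 (-0.32, 0.179) having the smallest p. No gene of 24 intestinal genes could be tested and 1 of 27 of the hypodermis was, without a call. No collagen (of 156), major sperm protein gene (of 31) or 7-transmembrane receptor gene (of 1162) had enough counts. Small RNA levels do not show how much of each tissue a sample held, and fewer cells and less RNA per cell cannot be told apart.

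Of 13 stress response genes tested the bZIP factor gene zip-2 was lower (log2 -0.46, adjusted p = 0.0408; lost with all reads as the scale and without null C, S784A B or S784A C), and hsf-1 was not called (0.53, 0.336). With all reads as the scale 3 of 13 were higher, hsf-1 among them (0.83, 0.0363), and 0 lower. Of all 2342 features tested at that scale, 248 were higher and 47 lower. By edgeR 0 of 14 ribosomal protein genes were called (1 at an unadjusted p under 0.05; 0 by the other tools), with rpl-10 (0.85, 0.235) and rpl-32 (-0.68, 0.390) first. Of 13 MATH and BTB genes 0 were called (2 at an unadjusted p under 0.05; 0 by DESeq2 and 1 by limma-voom), with bath-45 (-0.29, 0.0672) and bath-24 (0.66, 0.0826) first. With all reads as the scale rpl-10 (1.14, 0.0365) was called higher, 1 of 19 ribosomal protein genes, and so was bath-24 (0.95, 0.00353), 1 of 2 calls among 12 MATH and BTB genes. Of 5 nuclear hormone receptor genes tested nhr-229 was called and nhr-15 was not (-0.44, 0.651). The C-type lectin gene clec-166, the single testable one of 240, was higher in the null (log2 1.11, adjusted p = 1.14e-05). Of 23 pseudogenes tested 1 was higher and 2 were lower.

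Called genes lay side by side in several places, which were looked up after their values were seen, with gaps of at most 20000 bases. On chromosome V, 20303588 to 20311656, ZC15.3, ZC15.1 and ZC15.10 were the 3 genes tested and all were lower in the null, at log2 -1.10, -0.93 and -2.03. On the same chromosome, 19478152 to 19491820, Y43F8B.9, Y43F8B.17, Y43F8B.7 and Y43F8B.29 were lower, 4 of 7 tested there, at -0.43, -0.73, -0.51 and -0.65. Both genes tested at F55C9.3 and F55C9.5 were lower as well. All calls at Y43F8B and F55C9 were lost with all reads as the scale. The pair pals-6 and pals-14 on chromosome I was lower at -1.69 and -1.49. Without S784A C the calls on ZC15.1, pals-14, Y43F8B.7, Y43F8B.29, F55C9.3 and F55C9.5 were lost. Such neighbours may share sequence, and whether they count as separate differences was not tested.

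Beside wild type the called intervals were low in both genotypes. Of the 30, the mean lay below all 9 wild-type libraries in 23 for the null and in 22 for S784A. Of the 79 genes lower in the null, the null mean lay below all wild-type libraries in 43 and inside their range in 36, while S784A lay below in 30, inside in 30 and above in 19. Of the 29 genes higher in the null, the null lay inside the range in 22, below in 4 and above in 3, and S784A inside in 18 and below in 11. A position inside the range need not be near any wild-type library. Of those inside, 13 (null) and 10 (S784A) of the genes higher in the null, 18 and 12 of the genes lower in it and 5 and 5 of the intervals lay outside the range of both sets, G to I as well as A to F. Positions also depend on the scaling. With library totals alone, the null lay above all wild-type libraries in 22 of the 29 genes, and S784A in 45 of the 79. Both genotypes share these wild-type libraries, so the positions are a description with no test.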

How the data were processed

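The authors deposited a table of counts per feature and library, which are whole numbers and were not altered. The submitters' processing notes name HTSeq 0.11.2, SAMtools 1.9, Bowtie 1.2.3, cutadapt 2.3 and the assembly ce11. No source used here gives the strand setting, the handling of reads with several positions or any removal of duplicates. Per the labels' protocols the small RNAs were treated with RNA 5′ polyphosphatase and made into libraries with the QIAseq miRNA kit.

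The 6 libraries were fitted with edgeR 4.0.16 (R 4.3.3) with TMM scaling and filterByExpr, and tested with the quasi-likelihood test. The filter keeps a feature with enough counts in a single genotype, so some were tested only through the genotype where they are high. This also holds for some calls where it is not said above. A filter at a mean of 10 counts left 5 of the calls untested. P-values were adjusted over these 2280 features by Benjamini-Hochberg, with calls at an adjusted p under 0.05. CPM and fold changes (null over S784A) were computed here. The script was tested on simulated data. Rows for reads in no feature (53.1% to 82.9% of all reads in the 6 libraries and wild type) stayed out of the tests. Shares were compared by exact permutation tests. Gene positions and classes come from Ensembl WBcel235, the same assembly as ce11, which holds 20055 of 20134 identifiers. No genome sequence was used here, so no sequences are printed.

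Genes were named by rule. Among calls of at least 10 CPM with non-overlapping libraries these are the 10 largest rises and falls of genes and the 5 of intervals, then the 5 smallest p, the 5 highest levels, the 2 smallest p of each list with 3 or more tested members, dpf-3 and 8 genes that lead comparisons with wild type. Members, lists and this rule were chosen with earlier results of these data known. Alternatives used DESeq2 1.42.0, limma-voom (limma 3.58.1) and other scalings and filters. The library letters did not pair libraries (correlations of same-letter deviations 0.027, 0.022 and 0.0056), and all pairs of replicates differed beyond counting error. Python 3.11.15 was used for shares and figures.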

Additional observations from a re-analysis of the deposited data

Results flagged for a closer look

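In wild type, tofu-4 reached 359 CPM in its highest library, set apart from the other 8, while its median was 240 CPM and its lowest library 202 CPM. Chance sets a library apart in about 1 in 20 groups, and 1 was found among the named features and shares.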

How the results depend on the processing

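Of the alternatives, DESeq2 size factors left 29 features higher and 109 lower in the null, as reported, and library totals, TMM on genes only, a filter at a mean of 10 counts and limma-voom stayed within 1.5 times these counts. Scaling to all reads counted gave 248 and 47, the DESeq2 Wald test 13 and 57 (no adjusted p for 707 features), the fit over all 21 libraries 0 and 2 (248 features at an unadjusted p under 0.05), and a test against a fold of 1.5 gave 4 and 19. Without a filter 58 were lower. Leaving out 1 library gave 21 to 35 higher and 80 to 101 lower. For intervals lower in the null (30) these settings gave 15 with all reads, 0 with 21 libraries and 4 against a fold of 1.5, and 25 to 32 without 1 library. For mutator-dependent features lower in the null (83) the values were 38 with all reads, 41 without a filter, 44 by the Wald test, 1 with 21 libraries, 15 against a fold of 1.5 and 54 to 78 without 1 library. The share of protein-coding genes differed by 1.73 percentage points of feature counts (1.60 to 1.87 without 1 library) and by 3.21 of all reads. That of intervals differed by -1.82 of feature counts (-1.89 to -1.78) and by -0.0974 of all reads. That of reads in no feature differed by -3.25 (-4.04 to -2.85). That of pseudogenes differed by 0.0818 and ranged from -0.0455, without null C, to 0.215. The causes were not tested. A fit with the replicate block gave 25 higher and 84 lower, although the libraries of a block share only a letter. Depth limits features under about 48.4 CPM in the shallowest library.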
